A study of Mus musculus with 586 samples.

Results

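The comparison is between the P and the A columns of 3 mouse embryos at embryonic day 7.5 (E7.5), late in gastrulation. It holds every numbered section of embryos 1, 2 and 3 that has a library of both codes: 9 sections in embryo 1, 9 in embryo 2 and 10 in embryo 3. That makes 28 P and 28 A libraries, 56 of the 586 samples of the series. Section and code were read from the column names of the deposited tables. P is read as posterior, A as anterior and section 1 as the most distal section, as in the published notation of these embryos, which the labels do not spell out. The series is a spatial transcriptome atlas of C57BL/6 embryos from before to late gastrulation, made by Geo-seq, in which small groups of cells are taken from cryosections by laser microdissection and sequenced. The embryos carried no engineered allele and received no treatment, as far as the labels say. E7.5 P and A libraries of embryos 4, 5 and 6 (sections 3, 6 and 9 only), P and A libraries of 2 embryos at E7.0 and P and A libraries of 6 embryos at E6.5 were used for comparison. In embryos 1 and 2 the labels code regions B, C and D where the columns code P, L and R, so 18 P columns are tied to the E7.5 embryo they come from and not to a single labelled sample. The values used for E6.5 embryo 6 come from a table whose name gives E6.0, while the labels give E6.5. Labels do not state the sex of the embryos, their litters or how far apart they were in age.

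During gastrulation, epiblast cells on the posterior side pass through the primitive streak, lose epithelial contacts and leave as mesoderm and definitive endoderm. WNT, NODAL, BMP and FGF signals maintain the streak, and the cells in and beside it begin to express Cdx and Hox genes, which later give the trunk its positional identity. On the anterior side the epiblast becomes neural plate, and the transcription factors Otx2, Hesx1 and Six3 mark its forebrain and midbrain end. The node, at the front end of the streak and at the distal tip of the mouse embryo at this stage, produces the notochord and carries motile cilia.

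Values are FPKM, which corrects for gene length and the library's total, as the authors deposited them. For each gene the difference of log2(FPKM + 1) between P and A was taken in every section and averaged within the embryo, so that n = 3 embryos, and these differences were tested with limma over all genes with a mean of at least 1 FPKM in P or in A. A gene is called where the Benjamini-Hochberg adjusted p is under 0.05. Differences on this scale are in log2 units, understate the change of low genes, and are given with the moderated standard error (SE). FPKM tables hold no read counts, so the depth is unknown. FPKM sums ran from 255841 to 1057100, the genes at 1 FPKM or more numbered 4988 to 10609 in P (median 10176) and 6848 to 11319 in A (median 9822.5), and no pair of the 56 libraries was identical. In embryo 1 the P library of section 5 detected 4988 of them, the A library of section 5 detected 6848 and the P library of section 4 detected 7167, the lowest of the 56. The FPKM sums of embryo 3 ran from 255841 to 702361, while every library of embryos 1 and 2 had at least 711319. In sections 1 to 4 of embryo 3 the sums reached at most 355289. Levels are given as deposited, so levels set side by side between embryos or sections carry this difference. In a dissected piece of tissue, fewer cells of a type and less RNA per cell cannot be told apart.

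The summed level of anterior ectoderm markers was low in A section 1, at 2.25 to 15.6 FPKM (median 7.55), and had a higher median from section 2 up. In A section 2, Otx2 was at 0, 1.46 and 0.093 FPKM in embryos 1, 2 and 3, and Hesx1 was listed at 0 in each. P carried markers of the streak and of mesoderm. The summed level of 6 streak markers (T, Hoxb1, Mixl1, Evx1, Nkx1-2 and Fgf8) was 388 to 1617 FPKM (median 961) in P, against 0.0490 to 92.2 FPKM (median 3.81) in A from section 2 up. The summed level of 6 anterior ectoderm markers (Otx2, Hesx1, Six3, Pou3f1, Sox1 and Sox2) was 0.876 to 21.3 FPKM (median 5.12) in P and 7.38 to 597 FPKM (median 152) in A from section 2 up. These ranges overlapped, and the median of Sox1 was under 1 FPKM in A from section 2 up. P libraries also carried mesoderm markers: the sum of Mesp1, Tbx6, Hand1, Foxf1, Pdgfra and Kdr was 4.20 to 253 FPKM (median 115) in P, against 0 to 4.97 FPKM (median 1.08) in A from section 2 up. In P the medians of Hand1, Foxf1 and Kdr were under 1 FPKM. In A from section 2 up the medians of all 6 were. For scale, the same sum was 31.5 to 361 FPKM (median 107) in the 18 libraries coded MP of embryos 5 and 6, a code read as posterior mesoderm. How far mesoderm leaving the streak adds to the P values was not tested, and P is called here by its code.

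Visceral endoderm markers were low on both sides, at 2.58 to 76.8 FPKM (median 9.77) in P and 1.13 to 52.7 FPKM (median 11.4) in A, against 39.5 to 11634 FPKM (median 872) in libraries coded EP, read as posterior endoderm; in P, Afp, Ttr, Apoa4 and Cubn had medians under 1 FPKM. Blood markers varied most, at 0.135 to 3026 FPKM (median 71.2) in P and 0.224 to 8295 FPKM (median 30.8) in A, with medians of Gata1, Hbb-b1 and Tal1 under 1 FPKM on both sides. Trophoblast and decidua markers reached 52.2 FPKM in P and 128 FPKM in A. Section 1 stood apart on the A side. There the sum of 6 definitive endoderm and node markers (Sox17, Foxa1, Foxa2, Noto, Chrd and Shh) was 188 to 857 FPKM (median 232), against 0 to 92.2 FPKM (median 1.53) in A from section 2 up and 0 to 25.9 FPKM (median 1.51) in P. In the gene lists, calls of P minus A that were lost without section 1 are therefore named, and the count of slopes is given with and without it. Slopes by gene list and changes between stages are given with section 1 only.

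Of 10942 genes tested, 977 (8.93%) were higher and 694 (6.34%) were lower in P than in A. The genes with the greatest rise in P were regulators of the streak and of posterior identity: Cdx1, Hoxb1, Msgn1, Mixl1 and T were each over 6 log2 units higher. The greatest falls were in Sfrp1, a secreted WNT antagonist, Cldn6, a tight junction protein of epithelia, Otx2, a forebrain and midbrain regulator, and the chemokine Cxcl12. The 24 leading genes, 12 in each direction, had the same sign in all 3 embryos, and all 24 stayed called when section 1 was left out. By a rule on size, 12 genes of each direction are named as the leading genes: those called, changed by at least 1 log2 unit with the same sign in every embryo and averaging at least 5 FPKM in P or A, of which there were 261 higher and 147 lower. Scaling the libraries to an equal median moved the split of calls to 773 higher and 985 lower, so the balance between the 2 directions depends on the scaling. Fits that ignored the pairing within embryos called 538 genes higher and 444 lower. Without section 1, 926 genes were higher and 601 lower. Leaving out the libraries of sections 4 and 5 of embryo 1, among them the 3 with the fewest genes, raised the calls to 2111 higher and 1005 lower, and 1639 of the 1671 calls were among them.

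T (Brachyury), the T-box factor that marks the primitive streak and is needed for mesoderm and notochord, was abundant in every P library. Its lowest, median and highest levels were 166, 501 and 978 FPKM in 28 P libraries and 0, 2.48 and 1216 FPKM in 28 A libraries. The high A values came from section 1, where T stood at 720.5, 502 and 166 FPKM in P and 1216, 238 and 299 FPKM in A of embryos 1, 2 and 3. From section 2 up, A libraries reached at most 79.9 FPKM and P libraries had at least 298 FPKM, so the sides did not overlap there. Averaged over sections, T was at 726, 423 and 421 FPKM in P and 145, 29.3 and 39.7 FPKM in A of the 3 embryos. The difference was 6.16 ± 0.11 (SE; limma, Benjamini-Hochberg adjusted p = 6.6e-07), and 6.92 without section 1.

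Hoxb1, the 3′-most gene of the HoxB cluster and an early gene of the posterior epiblast, had 105, 239 and 364 FPKM as its lowest, median and highest level in P, and 0, 0.174 and 110.2 FPKM in A. Only section 1 and, in embryos 1 and 2, section 2 of A held more than 2 FPKM. Its embryo means were 298, 228 and 200.5 FPKM in P, against 13.4, 10.8 and 5.82 FPKM in A, a difference of 6.68 ± 0.14 (adjusted p = 6.9e-07), or 7.28 without section 1. Otx2, the homeobox factor of forebrain and midbrain, showed the opposite pattern. P libraries had 0, 0.0753 and 1.65 FPKM as lowest, median and highest, and A libraries 0, 38.3 and 111 FPKM. The Otx2 embryo means were 0.176, 0.0986 and 0.379 FPKM in P and 42.2, 52.6 and 33.9 FPKM in A, a difference of -4.02 ± 0.20 (adjusted p = 2.1e-05). Otx2 was also near 0 in the A libraries of sections 1 and 2, with at most 1.46 FPKM, so the sides overlapped distally; from section 5 up every A library held at least 26.0 FPKM and no P library more than 1.65 FPKM.

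**Figure D1:**
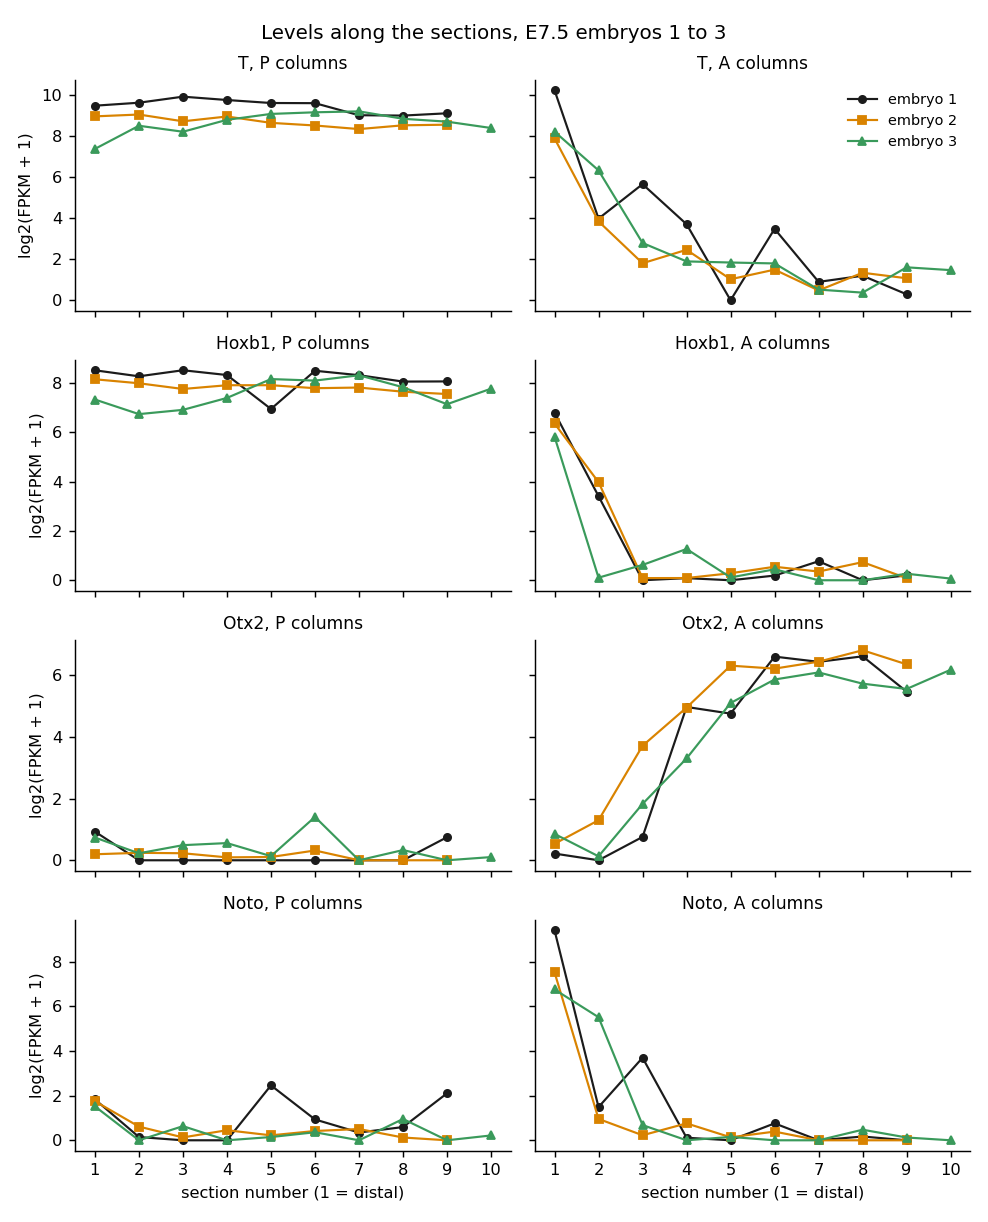
Levels as log2(FPKM + 1) against section number, where 1 is distal, for T, Hoxb1, Otx2 and Noto in the P columns (left) and the A columns (right), with 1 line per embryo. T and Hoxb1 stay high along all P sections and appear on the A side in the lowest sections, Noto stands out in A section 1, and Otx2 climbs along A while it stays under 2 FPKM in P.

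The promoters of T, Msgn1 and Otx2, a streak gene, a presomitic gene and an anterior gene, are shown as examples that hold the motif searched. Each runs from 250 bases before to 50 after the gene's start, from RefSeq on GRCm38.p6, 5′ to 3′ on the gene's strand. Capitals mark the motif searched. In T (chr17:8434173-8434472, plus strand) and Msgn1 (chr12:11208899-11209198, minus strand), a regulator of presomitic mesoderm, it is CTTTGA or its reverse complement TCAAAG, the core of TCF and LEF sites through which WNT signals act. In Otx2 (chr14:48665060-48665359, minus strand) it is TAATCC or its reverse complement GGATTA, the core bound by OTX factors. This is 1 of 4 RefSeq promoters of Otx2, taken from those that hold the motif.
T: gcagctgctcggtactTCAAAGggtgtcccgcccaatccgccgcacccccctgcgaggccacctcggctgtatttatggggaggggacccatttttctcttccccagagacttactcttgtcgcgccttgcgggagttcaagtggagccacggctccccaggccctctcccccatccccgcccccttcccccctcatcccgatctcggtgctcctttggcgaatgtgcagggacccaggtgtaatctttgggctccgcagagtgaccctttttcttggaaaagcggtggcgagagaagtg
Msgn1: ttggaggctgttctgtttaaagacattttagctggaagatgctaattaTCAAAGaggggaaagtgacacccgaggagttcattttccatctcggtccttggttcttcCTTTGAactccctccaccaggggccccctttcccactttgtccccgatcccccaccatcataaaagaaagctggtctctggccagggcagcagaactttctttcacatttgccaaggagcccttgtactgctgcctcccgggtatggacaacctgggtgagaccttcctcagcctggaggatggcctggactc
Otx2: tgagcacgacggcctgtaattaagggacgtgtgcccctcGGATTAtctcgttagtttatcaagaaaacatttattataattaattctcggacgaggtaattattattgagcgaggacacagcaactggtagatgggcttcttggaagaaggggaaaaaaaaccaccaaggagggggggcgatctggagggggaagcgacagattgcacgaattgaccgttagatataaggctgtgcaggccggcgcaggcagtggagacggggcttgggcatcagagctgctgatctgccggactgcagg
The match lies 234 bases before the start in T, at 202 and 143 bases before it in Msgn1 and 211 bases before it in Otx2. On either strand, CTTTGA was found in the promoters of 122 of 716 genes higher in P (17.0%), 59 of 497 lower in P (11.9%) and 1133 of 8100 of all genes tested (14.0%) that matched a RefSeq promoter. TAATCC was found in 6.42% of genes higher in P, 9.26% of genes lower in P and 6.77% of all. TTTATG, the site of CDX factors, or its reverse complement CATAAA, was found in 10.5% of genes higher in P, 7.44% of genes lower in P and 7.51% of all. Of 8 leading genes higher in P with a promoter, 4 held TTTATG: Gal, Hes7, Msgn1 and T. CTTTGA was in 2 of them, Msgn1 and T, and TAATCC in 0. Of 8 leading genes lower in P with a promoter, 1 held CTTTGA (Cxcl12), 1 held TAATCC (Otx2) and 0 held TTTATG. These motifs were picked out of 10 after their shares were seen. The 7 others lay at 0.698 to 16.8% in genes higher in P and 0.402 to 14.3% in genes lower in P. Over all genes tested they lay at 0.37 to 12.8%. Among them, TCACACC was in 7.12% of genes higher in P, 4.02% of genes lower in P and 4.0% of all. AGGTGTGA was in 2.09%, 1.01% and 1.0%, while CACGTG went the other way, at 10.8%, 13.3% and 12.1%. The named motifs are thus not the only ones more frequent in genes higher in P. A match is a run of letters, not a bound site.

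Of 15 streak transcription factors tested, 11 rose and 2 fell in P. Their median difference was 3.53, against 0.06 over all genes. In each list, only members that passed the filter on low values were tested, and a member under 1 FPKM on one side passed through the other, so the counts describe these members and not whole lists. Mixl1, a homeobox factor of the streak and nascent mesendoderm, was at 187, 56.02 and 159 FPKM in P and 1.89, 0.284 and 2.46 FPKM in A (6.21 ± 0.25, adjusted p = 8.3e-06); embryo 2 held less Mixl1 than the others, yet no P library overlapped A. Hes7, the oscillating repressor of the segmentation clock, was at 234, 125 and 141 FPKM in P and 9.53, 5.21 and 12.7 FPKM in A (5.79 ± 0.13). Tbx6, which steers streak cells to paraxial mesoderm, had nearly equal embryo means in P. It was at 105, 91.5 and 84.9 FPKM in P and 7.66, 3.14 and 5.61 FPKM in A (5.46 ± 0.15). In P section 5 of embryo 1, the library with the fewest genes, Hes7 was at 0.209 FPKM and Tbx6 at 0.470 FPKM. The WNT-driven factor Sp5 (3.96), the posterior epiblast genes Nkx1-2 (3.70) and Evx1 (3.69), Zfp703 (3.53) and Snai1 (2.02), the repressor of Cdh1 in cells leaving the streak, were also higher in P. Foxa2 (-1.39) and Gsc (-1.02), which mark the anterior end of the streak and its derivatives, were lower in P. Eomes, the T-box factor of early mesendoderm, was low on both sides at this stage, with 1.98, 1.14 and 1.56 FPKM in P and 1.53, 0.672 and 0.377 FPKM in A (0.53, adjusted p = 0.064).

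Most of the Hox genes tested were higher in P. Of 39 in the list, 16 passed the filter on low values; 14 of these were higher and 0 lower, with a median difference of 2.11. Since a Hox gene that is at 0 in A passed the filter only through its level in P, the count describes the genes that passed and not the whole family. Hoxb2 was at 53.8, 57.7 and 39.4 FPKM in P and 1.98, 1.78 and 0.961 FPKM in A (5.00 ± 0.13, adjusted p = 1.6e-06).

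The HoxB genes further 5′ whose levels are given here were less abundant in P than Hoxb2. In HoxA the differences did not fall in order toward 5′ (Hoxa2 2.30, Hoxa3 2.14, Hoxa4 1.84 and Hoxa5 2.99). Hoxa5 was at 14.7, 12.5 and 3.29 FPKM in P and 0.0929, 0.236 and 0.0507 FPKM in A (2.99), and Hoxb4 at 7.69, 6.45 and 3.24 FPKM in P and 0.0493, 0.0319 and 0.0162 FPKM in A (2.36). Embryo 3, whose FPKM sums were lower, held less of the genes further 5′ given here than embryos 1 and 2. Hoxb5 was at 6.25, 9.49 and 0.820 FPKM in P and 0.0259, 0.111 and 0.0278 FPKM in A, and Hoxb6 at 3.80, 5.47 and 0.116 FPKM in P and 0, 0.0559 and 0.0306 FPKM in A. Hoxb8 was at 2.16, 2.51 and 0.0272 FPKM in P and listed at 0 in every A library, and Hoxb9 was at 0.740, 2.28 and 0.0798 FPKM in P and 0, 0 and 0.00673 FPKM in A. The P levels of Hoxb6, Hoxb8 and Hoxb9 in embryo 3 were thus close to those of A. Other called members were Hoxa2 (2.30), Hoxa3 (2.14), Hoxb3 (2.22), Hoxa4 (1.84), Hoxb7 (1.77), Hoxc4 (1.18) and Hoxd1 (1.09). The 2 genes not called were Hoxb8 (1.02, adjusted p = 0.056) and Hoxb9 (0.78, adjusted p = 0.093). Without embryo 3 all 16 were called, without embryo 2 12 and without embryo 1 8; Hoxb6 lost its call without section 1 (1.46, adjusted p = 0.051).

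All 3 Cdx genes, homeobox regulators of Hox expression in the posterior body, were higher in P. Cdx1 was at 454, 455 and 208 FPKM in P and 18.2, 16.1 and 4.01 FPKM in A (6.80 ± 0.20, adjusted p = 2.5e-06), and 7.41 without section 1. Cdx2 was at 17.1, 14.5 and 17.9 FPKM in P and 3.85, 1.54 and 1.41 FPKM in A (3.10 ± 0.16). Cdx4 was at 7.52, 12.9 and 2.65 FPKM in P and 0, 0.0997 and 0.0337 FPKM in A (2.41 ± 0.33), again with the lowest P level in embryo 3. Without embryo 1, 2 of the 3 were called.

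**Figure D2:**
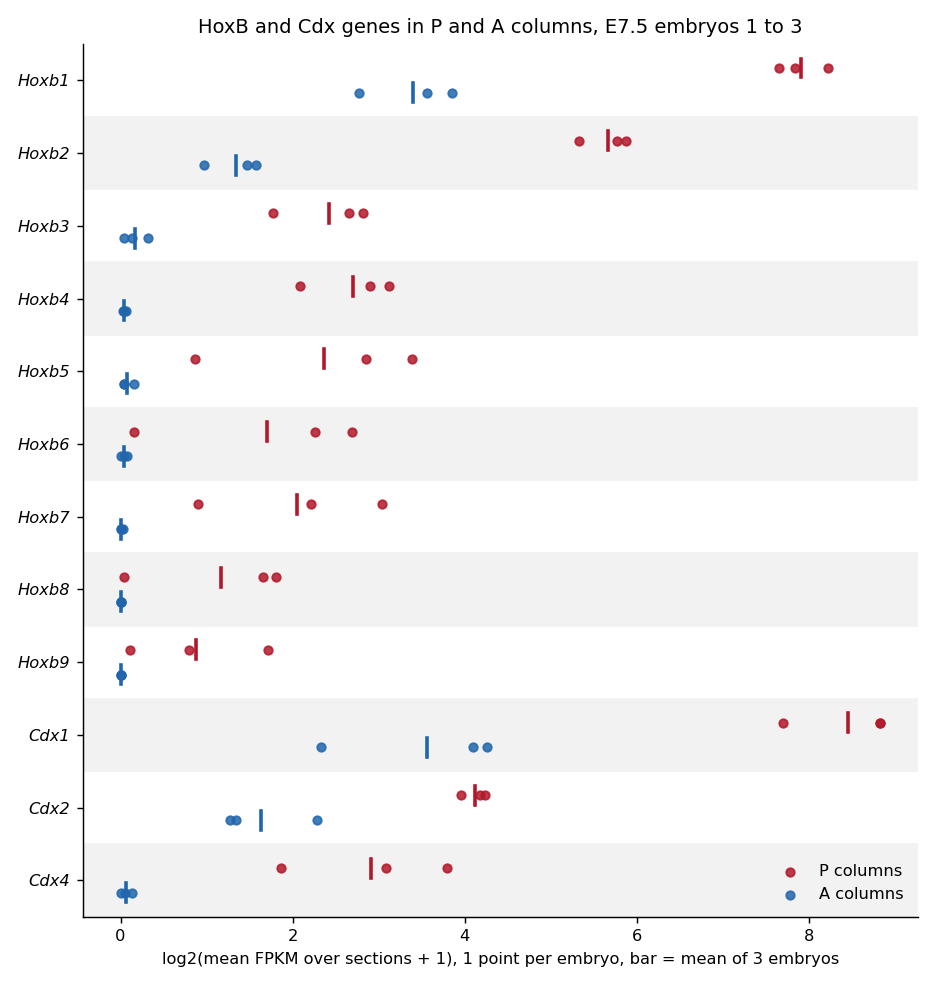
Mean level over the sections as log2(FPKM + 1) of each HoxB and Cdx gene tested, with 1 point per embryo for P (upper row of a gene) and A (lower row), and a bar at the mean of 3 embryos. Hoxb1 and Cdx1 reach the highest P levels, and the P points of the 5′ HoxB genes spread widely, with embryo 3 near the A points.

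All 9 WNT ligands tested, of 19 listed, were higher in P (median difference 1.82); 5 of them were under 1 FPKM in A and so passed the filter through P alone. Wnt3a, which maintains paraxial mesoderm progenitors, was at 50.7, 53.1 and 50.3 FPKM in P and 2.20, 0.556 and 1.504 FPKM in A (4.97 ± 0.17, adjusted p = 4.2e-06). Wnt5b, a ligand that also acts outside the beta-catenin pathway, was at 40.8, 47.2 and 28.4 FPKM in P and 4.29, 3.09 and 2.46 FPKM in A (3.71 ± 0.15). Wnt8a was at 39.6, 53.5 and 42.9 FPKM in P and 9.36, 14.5 and 2.83 FPKM in A (3.67 ± 0.18). Wnt6 was higher too (2.71). The Wnt3a means in P were nearly equal in the 3 embryos. Wnt3, the ligand that starts the streak, was higher as well but low by this stage, at 3.81, 1.85 and 6.82 FPKM in P and 0.326, 0.138 and 0.571 FPKM in A (1.82 ± 0.22).

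Among 30 WNT receptors, antagonists and targets, 11 were higher and 12 lower (median difference -0.03). Genes that WNT signals are known to switch on were among the higher ones: Axin2 (2.05), Notum (2.72), Lef1 (2.02), Tcf7 (1.85) and Dkk1 (2.89). The antagonists divided. Frzb was at 48.0, 37.5 and 38.1 FPKM in P and 4.77, 2.88 and 2.30 FPKM in A (3.99 ± 0.13), and Sfrp1 at 0.469, 0.399 and 0.328 FPKM in P and 29.96, 34.3 and 22.7 FPKM in A (-4.08 ± 0.17, adjusted p = 1.0e-05). Tcf7l1, a TCF that represses WNT targets in the anterior epiblast, was lower (-2.47), as were Fzd7 (-2.04), Fzd8 (-1.54) and Fzd5 (-1.17), while Fzd10 was higher (2.73).

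FGF genes were mostly higher in P: 15 of 22 were higher and 3 lower (median difference 1.499). Fgf8, which cells need to leave the streak, was at 53.1, 50.2 and 61.1 FPKM in P and 5.39, 3.96 and 1.62 FPKM in A (4.22 ± 0.20, adjusted p = 1.6e-05). The ligands Fgf17 (4.28), Fgf3 (3.94), Fgf15 (3.55) and Fgf4 (2.98) were higher too. Of the feedback regulators and targets tested in the list, Spry1 was not called (0.16) and the others were higher. Dusp6, a phosphatase that dampens ERK, was at 49.998, 29.6 and 28.5 FPKM in P and 4.88, 3.46 and 2.81 FPKM in A (3.53 ± 0.14); Etv4 (3.64), Etv5 (2.72), Spry2 (2.98) and Spry4 (2.71) were higher, as were, by less, Il17rd (1.78), Spred1 (1.22), Spred2 (0.92), Etv1 (0.93) and Dusp4 (0.83). The 3 lower genes were the receptors Fgfr2 (-2.68) and Fgfr3 (-0.60) and the epiblast ligand Fgf5 (-1.08).

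Of 17 Notch pathway genes, 6 were higher and 3 lower (median difference 0.31). The ligands of the presomitic mesoderm led the rise: Dll1 was at 26.2, 30.1 and 23.2 FPKM in P and 3.37, 1.36 and 1.73 FPKM in A (3.79 ± 0.14), and Dll3 at 32.9, 31.4 and 46.1 FPKM in P and 6.22, 3.71 and 5.39 FPKM in A (3.29 ± 0.14). The feedback inhibitor Nrarp was higher (1.57). The glycosyltransferase gene Mfng (-1.87), Hes1 (-0.89) and Notch2 (-0.79) were lower.

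NODAL pathway genes showed no common direction, with 3 higher and 4 lower of 16 (median difference 0.17), and 3 higher and 2 lower without section 1, where Gdf3 (-0.62 over all sections) no longer passed the filter. Fst, an activin antagonist, was at 170.2, 164 and 299 FPKM in P and 25.1, 10.8 and 23.3 FPKM in A (5.05 ± 0.14, adjusted p = 1.6e-06). Nodal itself was low, at 0.972, 0.449 and 2.24 FPKM in P and 3.36, 0.898 and 5.60 FPKM in A (0.07, adjusted p = 0.77), and its highest values were in A section 1, at 30.2, 7.43 and 37.8 FPKM. Gdf1, a NODAL partner, was lower in P, at 8.199, 11.5 and 4.95 FPKM against 31.1, 30.4 and 21.5 FPKM in A (-1.70 ± 0.15). Cfc1, a NODAL co-receptor, was lower (-1.22) but not called without section 1 (-0.63, adjusted p = 0.15).

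Of 16 BMP pathway genes 6 were higher and 2 lower (median difference 0.20). Msx1, a BMP target, was at 5.85, 9.07 and 3.15 FPKM in P and 0.283, 0.240 and 0.196 FPKM in A (1.70 ± 0.14), and Bmp4 at 4.21, 4.59 and 4.53 FPKM in P and 1.19, 0.861 and 0.933 FPKM in A (1.202 ± 0.15). Smad1, which carries BMP signals to the nucleus, was higher (1.06). Id2, a BMP-responsive inhibitor of basic helix-loop-helix factors, went the other way, at 10.2, 15.4 and 9.56 FPKM in P and 67.0, 76.4 and 52.9 FPKM in A (-2.65 ± 0.16). The higher call of Id3 (0.35) and the lower call of Chrd (-0.72) did not hold without section 1.

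Of 14 retinoic acid genes 5 were higher and 1 lower (median difference 0.34); the call of Rdh10 (0.83) was lost without section 1. Aldh1a2, the enzyme that makes retinoic acid in mesoderm, was at 74.999, 52.0 and 50.1 FPKM in P and 11.2, 5.20 and 5.66 FPKM in A (4.77 ± 0.13, adjusted p = 1.6e-06). The retinoid receptor gene Rxrg (2.66) and Crabp1 (1.75), which encodes a retinoic acid binding protein, were higher. Cyp26a1, which degrades retinoic acid, was not called (-1.07 ± 0.54, adjusted p = 0.27), and its mean was 33.7, 29.99 and 1.10 FPKM in P and 61.1, 89.7 and 27.6 FPKM in A. Embryo 3 was almost without it in P, and A sections 1 and 2 held at most 3.01 FPKM while A sections further up reached 186 FPKM.

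Genes of nascent and paraxial mesoderm were mostly higher in P, 12 of the 15 tested (21 were listed) against 1 lower (median difference 1.84). Under 1 FPKM in A were 5 of the 15, and 2 were under 1 FPKM in P, so these passed the filter through the other side alone. Msgn1, which moves progenitors into the presomitic fate, was at 158, 203 and 111 FPKM in P and 2.55, 1.13 and 3.61 FPKM in A (6.34 ± 0.23, adjusted p = 5.8e-06). From section 2 up no A library held more than 1.22 FPKM of it, while P ran from 0 FPKM, in section 5 of embryo 1, the library with the fewest genes, to 339 FPKM. Cited1 was at 238, 214 and 79.7 FPKM in P and 19.0, 10.7 and 6.57 FPKM in A (4.55 ± 0.21). The apelin receptor Aplnr (3.59) and its ligand Apln (2.49) were both higher. The 1 lower member was Fam181b (-0.91). Mesp1, the factor of the earliest cardiac and cranial mesoderm, was higher overall (2.45 ± 0.28) but unevenly so. It was highest in the last section of P, at 125, 72.5 and 41.3 FPKM in embryos 1, 2 and 3, and at most 11.7 FPKM in P sections 1 to 6. Of 5 lateral, cardiac and extra-embryonic mesoderm genes tested, of 21 listed, 4 were higher and 0 lower (median difference 1.08). Among these 5, 3 were under 1 FPKM in A and so passed the filter through P alone. Hand1 was at 2.82, 4.67 and 2.25 FPKM in P and 0.244, 0.283 and 0.297 FPKM in A (1.08 ± 0.13), also with its highest values in the last P sections; Pmp22 (1.35) and Smarcd3 (0.58) were higher. The 2 blood and endothelium genes tested, Lmo2 (2.98) and Etv2 (0.81), which encode early regulators of that lineage, were both higher (median difference 1.89). Gal, which encodes the neuropeptide galanin and was also among the 12 leading rises, was at 449.9, 317 and 267 FPKM in P and 175, 56.6 and 44.9 FPKM in A (5.13 ± 0.14). In A it stood at 1148, 367 and 284 FPKM in section 1 and 0, 0.559 and 3.19 FPKM in section 5.

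On the A side, all 7 forebrain and midbrain genes tested, of 22 listed, were lower in P (median difference -2.47), and 6 of them were under 1 FPKM in P and so passed the filter through A alone. Hesx1, a homeobox repressor of the anterior neural plate, was at 0.961, 0.270 and 0.289 FPKM in P and 105, 88.1 and 27.7 FPKM in A (-3.52 ± 0.21, adjusted p = 5.4e-05). Six3 was at 0, 0.00764 and 0.0385 FPKM in P and 6.25, 5.77 and 3.83 FPKM in A (-1.79 ± 0.14). Lhx5 (-1.43) and Pax6 (-0.77) were lower as well.

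The broader neural list was divided, with 5 higher and 7 lower of 20 (median difference -0.09). Irx3 and Irx5, homeobox genes of the neural plate, were lower: Irx3 was at 0.138, 0.267 and 0.418 FPKM in P and 18.3, 24.6 and 7.97 FPKM in A (-3.44 ± 0.31), and Irx5 at 0.321, 0.192 and 0.657 FPKM in P and 12.6, 16.3 and 8.84 FPKM in A (-2.99 ± 0.22). Irx3 lost its call without embryo 1 (-3.27, adjusted p = 0.059). Pou3f1 was at 0.346, 0.589 and 0.470 FPKM in P and 18.1, 18.5 and 10.4 FPKM in A (-3.13 ± 0.19), and Sox2 was lower (-1.83). The lower call of Zic5 (-0.66) was lost without section 1. Gbx2, which marks the neural plate behind the midbrain, was higher, at 54.3, 63.3 and 37.6 FPKM in P and 20.6, 26.3 and 5.46 FPKM in A (3.09 ± 0.19), and so was Fabp7, at 135, 131 and 60.9 FPKM in P and 21.7, 15.0 and 6.73 FPKM in A (3.03 ± 0.11). Gbx2 overlapped between the sides distally: in section 2 it stood at 75.9, 69.5 and 29.98 FPKM in P and 92.1, 92.2 and 34.7 FPKM in A.

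Pluripotency genes were lower more often than higher, 8 against 4 of 20 (median difference -0.37). Utf1 was at 5.41, 10.9 and 2.08 FPKM in P and 84.96, 54.3 and 62.4 FPKM in A (-3.23 ± 0.33) and lost its call without embryo 1 (-3.01, adjusted p = 0.14). Slc7a3, a transporter of basic amino acids, was at 6.95, 6.65 and 4.79 FPKM in P and 91.7, 59.8 and 129 FPKM in A (-3.46 ± 0.21), and the DNA methyltransferase Dnmt3b at 69.5, 65.6 and 71.3 FPKM in P and 217, 209 and 206 FPKM in A (-1.43 ± 0.11). Klf5 (3.38), Tdgf1 (1.97) and Pou5f1 (0.83) were higher, and Nanog did not pass the test (0.01, adjusted p = 0.97). Lin28a, also higher (0.38), lost its call without section 1.

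The 3 other leading falls belong to none of these lists. Cxcl12, a chemokine, was at 0.586, 2.13 and 0.836 FPKM in P and 31.1, 29.4 and 23.6 FPKM in A (-3.67 ± 0.19). Tal2, a basic helix-loop-helix factor of the midbrain, was at 0.917, 1.69 and 0.621 FPKM in P and 24.1, 31.4 and 9.69 FPKM in A (-3.03 ± 0.21), and Foxd4, a forkhead factor of the early neural plate, at 0.00475, 0.0289 and 0.171 FPKM in P and 13.9, 17.7 and 5.00 FPKM in A (-2.996 ± 0.27).

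Cell adhesion genes differed between the sides. Of 20 epithelial genes 10 were lower and 2 higher (median difference -0.52); scaled to an equal FPKM sum 10 were lower and 0 higher, and scaled to an equal median 12 and 0. Cldn6 was at 14.8, 18.1 and 27.99 FPKM in P and 286, 212 and 265 FPKM in A (-4.03 ± 0.17, adjusted p = 1.0e-05), Cldn7 at 13.1, 12.8 and 14.1 FPKM in P and 59.7, 40.9 and 61.9 FPKM in A (-1.96 ± 0.18), and the polarity protein gene Crb3 at 1.60, 1.82 and 2.87 FPKM in P and 36.5, 22.4 and 27.6 FPKM in A (-2.78 ± 0.17). The vesicle transport gene Rab25 was lower (-1.41). Epcam was lower by less (-0.77), and Cdh1, E-cadherin, did not pass the test (0.03, adjusted p = 0.89).

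Of 18 mesenchymal genes 9 were higher and 2 lower (median difference 0.47). Vim, the intermediate filament of mesenchyme, was at 56.9, 45.9 and 41.3 FPKM in P and 11.8, 14.2 and 7.496 FPKM in A (2.14 ± 0.17), and Fn1, fibronectin, at 22.3, 19.6 and 16.6 FPKM in P and 8.06, 5.39 and 4.29 FPKM in A (1.60 ± 0.15). Cdh2, N-cadherin, was higher (1.30), and the matrix protein gene Sparc was lower (-1.25 ± 0.12). Mmp14 and Col1a2 lost their higher calls without section 1. Ephrin and semaphorin genes, which guide cells at boundaries, had 8 higher and 4 lower of 23 (median difference 0.03). The smallest p was that of Epha1, which was at 27.1, 44.3 and 38.8 FPKM in P and 4.49, 4.96 and 6.02 FPKM in A (2.56 ± 0.20); Epha4 (1.57) and Sema6a (1.79) were higher, and Ephb3 was lower (-1.61 ± 0.13).

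Of 10 genes of surface ectoderm and amnion tested, of 20 listed, 5 were higher and 0 lower (median difference 0.56). Among the 10, 5 were under 1 FPKM in A and so passed the filter through P alone. Grhl3, 1 of the higher genes, was at 7.71, 3.94 and 7.47 FPKM in P and 0.478, 0.124 and 0.254 FPKM in A (2.37 ± 0.15). Wnt6 and Tfap2c (0.99), an AP-2 factor, belong to the same list. Of 6 germ cell genes 3 were higher and 1 lower (median difference 0.62); Ifitm1, which is also expressed in the streak, was at 1001, 787 and 393 FPKM in P and 451, 226 and 142 FPKM in A (2.18 ± 0.08). Kitl, the KIT ligand gene, was higher (1.70), as was Tfap2c, and the receptor gene Kit was lower (-0.91).

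Cell cycle genes were mostly not called, with 5 higher and 1 lower of 24 and a median difference of 0.23 (equal FPKM sum 4 and 1, equal median 3 and 1, without section 1 3 and 0, and without embryo 1 sections 4 and 5 11 and 1). The exceptions with the greatest difference were Ccnd2, cyclin D2, at 96.4, 116 and 53.2 FPKM in P and 19.9, 25.9 and 10.3 FPKM in A (2.29 ± 0.11), and Cdkn1a at 48.8, 43.2 and 56.4 FPKM in P and 21.1, 21.0 and 18.4 FPKM in A (2.32 ± 0.12). Cdkn1b, which encodes an inhibitor of cyclin-dependent kinases, was lower (-0.71) and Ccnb2, cyclin B2, higher (0.49). Without section 1, Cdkn1b, Ccna2 and Mcm6 lost their calls. Mki67 was not called (-0.03). Of 20 glycolysis genes 3 were higher and 1 lower (median difference -0.02), and 3 higher and 3 lower with an equal FPKM sum, or 3 and 4 with an equal median. Lactate exporter gene Slc16a3 was lower (-1.01 ± 0.12) and the glycolytic enzyme genes Eno1 (0.55) and Aldoc (0.68) were higher, as was Ldhb (0.61 ± 0.08). Immediate early and stress genes had 2 higher and 3 lower of 14 (median difference 0.07). The immediate early genes Ier2 (0.71) and Junb (0.96) were higher. The growth arrest gene Gadd45g was at 1.29, 1.42 and 0.619 FPKM in P and 17.5, 13.4 and 6.89 FPKM in A (-2.62 ± 0.18), and the metallothionein gene Mt2 at 17.8, 12.4 and 11.7 FPKM in P and 72.5, 61.1 and 26.6 FPKM in A (-1.87 ± 0.19). Visceral endoderm genes had 6 higher and 2 lower of 16 and a median difference of 0.07 (6 and 4 with an equal FPKM sum, 6 and 5 with an equal median), and the members with the smallest p, Cldn6, Cited1 and Lrp2, are also expressed outside that tissue, as is Rhox5, which was higher (1.51). Of 12 genes of decidua, adult blood and trophoblast 1 was higher, Acta2 (0.80), and 0 were lower (median difference 0.36). The differences of Cyp11a1 (0.55, adjusted p = 0.076), Prl2c2 (0.39, adjusted p = 0.11) and Ascl2 (-0.35, adjusted p = 0.18) did not pass the test.

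**Figure D3:**
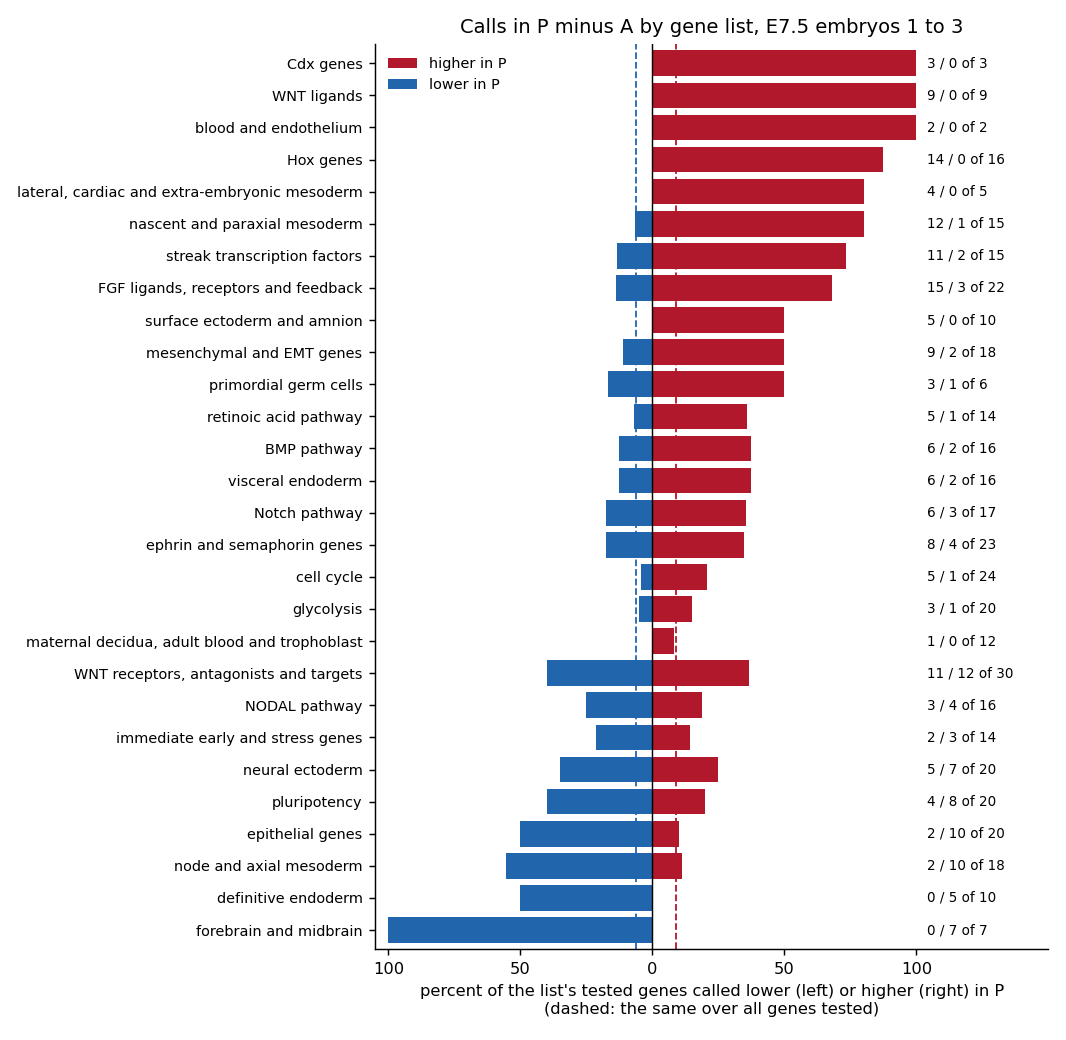
Percent of each gene list's tested members called higher (right) or lower (left) in P, with the counts at the right margin and dashed lines at the share over all genes, 8.93% higher and 6.34% lower. The tested WNT ligands and Cdx genes are all higher and the tested forebrain and midbrain genes all lower, while glycolysis and cell cycle lists are mostly not called.

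Section 1 of A carried the genes of the node, and section 1 of P did not to the same degree. Noto, the homeobox gene of the node, was at 2.56, 2.36 and 1.87 FPKM in P and 674, 183 and 107 FPKM in A in embryos 1, 2 and 3. Foxj1, which drives motile cilia, was at 5.59, 2.17 and 8.83 FPKM in P and 247, 90.9 and 115 FPKM in A. Dynlrb2, a dynein light chain of cilia, was at 22.4, 4.36 and 18.2 FPKM in P and 1975, 548 and 309 FPKM in A. For all 3 genes the A libraries lay above the P libraries of section 1 in every embryo. The signal genes Shh, at 0, 0 and 0.293 FPKM in P and 24.1, 9.28 and 2.13 FPKM in A, and Chrd, at 0.684, 0 and 5.27 FPKM in P and 76.4, 12.8 and 43.9 FPKM in A, had the same order. In embryo 3, A section 2 also held 44.5 FPKM of Noto and 79.9 FPKM of T. Of 18 node and axial mesoderm genes, 8 of them under 1 FPKM in P, 10 were lower and 2 higher in P over all sections (median difference -0.65). Without section 1, 4 were lower and 2 higher. Noto (-0.81), Foxj1 (-0.77), Chrd, Tekt1 (-0.92) and Dynlrb2 (-1.11) lost their calls, and Shh (-0.58) no longer passed the filter on low values. Sox9 was lower with section 1 (-2.36 ± 0.15) and without it (-2.32). Of 10 definitive endoderm genes, 5 of them under 1 FPKM in P, 5 were lower and 0 higher over all sections (median difference -0.64). The keratin gene Krt7 (-0.80) and Cer1 (-1.29), a NODAL and BMP antagonist, were among the lower ones. Without section 1, 5 of 9 definitive endoderm genes were lower and 1 higher. Foxa2 was still called without section 1 (-1.12).

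The difference between P and A changed along the sections. A slope was fitted in each embryo, in log2 units over the whole axis from the lowest to the highest section; of 10942 genes 450 (4.11%) had an upward slope and 139 (1.27%) a downward one, so that P minus A grew or shrank toward the proximal end. Hesx1 and Otx2 had the steepest falls that passed the test. The slope of Otx2 was -6.81 ± 0.34. Hesx1 (-8.64 ± 0.47, adjusted p = 2.1e-05) was listed at 0 in P and in A in section 2 of all 3 embryos, and was at 3.94, 0 and 0 FPKM in P and 475, 314 and 77.2 FPKM in A in section 9. On the A side the level thus climbed with the section number, while P stayed under 4 FPKM, and Six3 (-4.05 ± 0.36) and Shisa2 (-4.31 ± 0.36), an antagonist of WNT and FGF receptors, had the same direction. Cyp26a1 (-5.75 ± 0.51) and Utf1 (-3.38 ± 0.51) completed the 6 leading falls. The 6 leading rises were Cfc1 (8.58), Spink3 (7.35), Cxx1c (6.79; its Cxx1a and Cxx1b copies are near-identical, so how reads were split is uncertain), Nme5 (6.25), Gbx2 (6.16) and T (6.13 ± 0.48). For T and Gbx2 the slope came from the A side, where both were high distally and near 0 proximally. Of 18 node genes 15 had an upward slope and 1 a downward one, a count that includes section 1 and was not made without it. The slope of Mesp1 (5.01 ± 0.36) came from the P side, with the levels given above. Fgf8 stood at 78.7, 79.8 and 160.2 FPKM in the last P section of embryos 1, 2 and 3 and 21.3, 42.6 and 12.4 FPKM in the first. In embryo 3 the FPKM sum was 563546 in the last P section and 272709 in the first.

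Many slopes rest on section 1: without it 94 genes were called, 91 of them among the 589. The slope of Hoxb1 was 4.08 over all sections and 1.46 (adjusted p = 0.052) without section 1. Spink3 (5.53, adjusted p = 0.14) and Utf1 (-2.78, adjusted p = 0.055) also lost their calls. Of the 12 leading slopes, 5 kept their call under all 12 alternatives; Cxx1c lost it without embryo 1 (adjusted p = 0.22). Without embryo 1 there were 334 calls and without embryo 3 there were 354. With neither the lowest nor the highest section 63 genes were called.

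The lateral columns of the same embryos, coded L1, L2, R1 and R2, were set beside the 2 ends. Over sections 3 to 8, mean T was 543 ± 179 FPKM in P, 33.3 ± 31.9 in L2, 24.8 ± 2.82 in R2, 1.02 ± 0.666 in L1, 1.501 ± 1.30 in R1 and 5.58 ± 5.88 in A (± SD, n = 3 embryos). Hoxb1 was 248 ± 37.4 FPKM in P, 41.6 ± 18.1 in L2, 47.4 ± 35.9 in R2, 6.10 ± 8.13 in L1, 5.91 ± 9.13 in R1 and 0.280 ± 0.124 in A. Both genes were therefore highest in P, intermediate in L2 and R2, and low in L1, R1 and A, whose spreads overlapped. Otx2 ran the other way, at 0.191 ± 0.254 FPKM in P, 0.757 ± 0.818 in L2, 3.71 ± 2.15 in R2, 21.4 ± 3.84 in L1, 20.3 ± 3.98 in R1 and 52.7 ± 14.4 in A. Left and right columns of the same number did not differ beyond their spread for T, Hoxb1 or Otx2 in L1 and R1. Msgn1 was low outside P: it was 166 ± 55.1 FPKM in P, 0.234 ± 0.206 in L2, 3.75 ± 3.65 in R2 and 0.0958 ± 0.102 in A. Cdx1 reached further to the sides, at 397 ± 127 FPKM in P, 113 ± 47.3 in L2, 153 ± 114 in R2 and 0.733 ± 0.741 in A. These levels are a description with no test.

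Embryos 4, 5 and 6 gave the same comparison in embryos that the first one did not use, with P and A named in their labels and with sections 3, 6 and 9 only. Of 9956 genes tested, 455 (4.57%) were higher and 135 (1.36%) lower in P. The median difference over all genes was 0.21, and after scaling the libraries to an equal median it was 0.05, with 193 genes higher and 120 lower; with an equal FPKM sum 197 were higher and 124 lower. A fit without the pairing called 136 genes, and the count fell to 202 without embryo 5 and 388 without embryo 6. All 24 leading genes of embryos 1 to 3 had the same sign in embryos 4 to 6, and 22 were called there. The 2 others were Tal2 and Foxd4 (adjusted p = 0.097 and 0.10). Over all genes, 431 were called with the same sign in both sets, which is 25.8% of the 1671 calls in embryos 1 to 3 and 73.1% of the 590 in embryos 4 to 6. Of 1391 calls of embryos 1 to 3 that were tested in embryos 4 to 6, 1331 (95.7%) had the same sign there, against 6721 of 9543 (70.4%) over all genes tested in both.

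In embryos 4 to 6, T had 154, 307 and 1214 FPKM as lowest, median and highest level in the 9 P libraries, and 0, 2.46 and 77.1 FPKM in the 9 A libraries. The sides did not overlap, and the highest A value was that of section 3 of embryo 4. The difference was 6.52 ± 0.69 (adjusted p = 0.011), with embryo 6 at 8.62 above embryos 4 and 5 at 5.61 and 5.33; without embryo 4 the call was lost (6.98, adjusted p = 0.35). Hoxb1 had 29.2, 56.7 and 116 FPKM in P and 0, 0 and 1.41 FPKM in A (5.70 ± 0.26, adjusted p = 5.4e-06). Otx2 had 0, 0 and 4.80 FPKM in P and 11.3, 25.9 and 54.7 FPKM in A (-4.24 ± 0.26, adjusted p = 1.9e-05). Fst (6.16 ± 0.21), Mixl1 (6.05 ± 0.35), Cxx1c (6.01) and Gal (5.60) completed the 6 leading rises there, and Utf1 (-4.02), Slc7a3 (-3.89), Sfrp1 (-3.43), Eras (-3.40) and Cldn6 (-3.37) the leading falls. Hox genes were called in 6 of 8 tested, streak factors in 12 of 13, all higher, and forebrain and midbrain genes in 5 of 6, all lower. Some other lists had few calls there. BMP genes had 0 higher and 1 lower of 16, with a median difference of 0.19, against 0.20 in embryos 1 to 3. Surface ectoderm and amnion genes had 0 and 1 of 12, with a median of 0.0083 against 0.56. Definitive endoderm genes had 0 higher and 0 lower of 7 (median -0.73 against -0.64). Node genes had 2 higher and 1 lower of 10 (median -0.07 against -0.65). Embryos 4 to 6 gave fewer calls over all genes and were compared without section 1. A lower count of calls therefore does not show that a list differed between the sets. The difference between the 2 sets of embryos, taken over sections 3, 6 and 9 of all 6, gave no call among 11228 genes (0%) by limma. Before adjustment 1078 genes lay under 0.05, and the lowest adjusted p was 0.201. For Hoxb1 it was 1.84 ± 0.36 (adjusted p = 0.22).

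**Figure D4:**
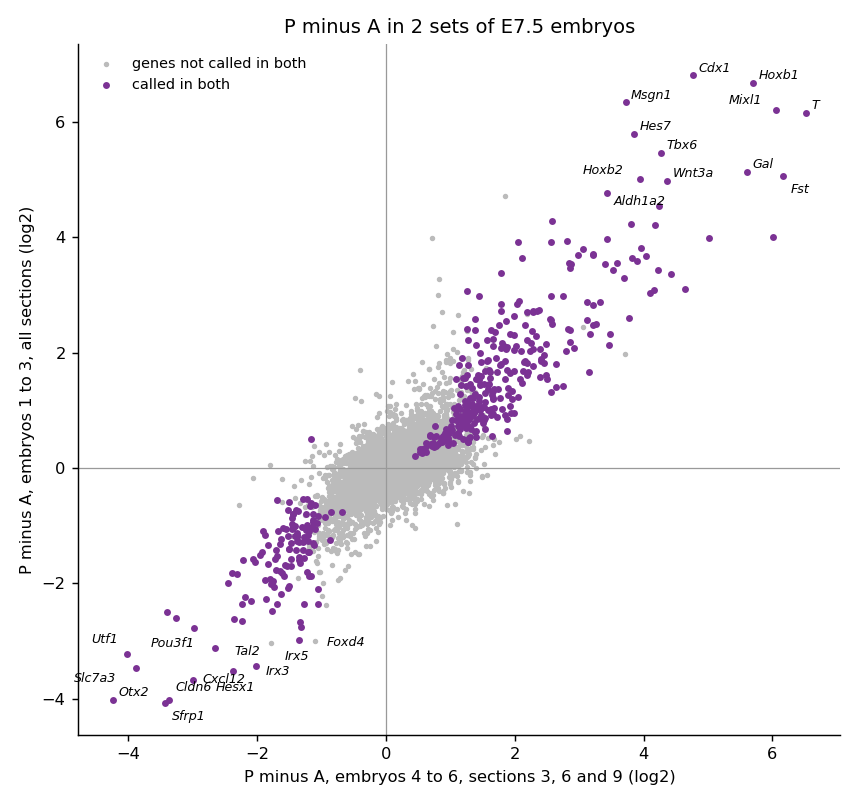
P minus A in log2 units for each gene tested in both sets, in embryos 4 to 6 (horizontal) and in embryos 1 to 3 (vertical), with the 432 genes called in both in purple and the 24 leading genes of embryos 1 to 3 named. All 24 named genes lie at the upper right or the lower left, where both sets have the same sign.

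P minus A at E7.5 was then set against P minus A at earlier stages. The fit held 6 embryos at E6.5, 2 at E7.0 and embryos 1 to 3 at E7.5. Paired sections per embryo numbered 5 to 7 at E6.5, 3 and 4 at E7.0 and 9 or 10 at E7.5. The sections compared therefore differ between stages, and no stage fit used matched sections or left out section 1. Of 11574 genes the difference between P and A changed for 1013 (8.75%) from E6.5, 605 upward and 408 downward, and for 547 (4.73%) from E7.0, 342 upward and 205 downward. Scaled to an equal median, 434 were upward and 503 downward from E6.5, and 285 and 260 from E7.0. Both changes share the E7.5 embryos. For the leading genes of a change, every E7.5 embryo had to lie beyond every embryo of the earlier stage. With 2 embryos at E7.0, the second change rests on few samples: it held 352 calls without E7.0 embryo 1, 1233 without E7.0 embryo 2, 347 without E7.5 embryo 1 and 308 without E7.5 embryo 2. The change from E6.5 held 664 calls without E7.5 embryo 1.

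T was already present in P at E6.5. Its mean was 30.7 FPKM in P and 2.41 FPKM in A at E6.5, 280.0 FPKM in P and 56.2 FPKM in A at E7.0 and 523 FPKM in P and 71.4 FPKM in A at E7.5, so P minus A was 2.43 at E6.5, 5.94 at E7.0 and 6.16 at E7.5; it changed by 3.73 ± 0.27 from E6.5 (adjusted p = 1.8e-07) and by 0.22 ± 0.34 from E7.0 (adjusted p = 0.82). Without section 1, T in A at E7.5 averaged 11.2, 3.29 and 10.9 FPKM in embryos 1, 2 and 3, so its mean depends on the sections covered. Hoxb1 and Cdx1 were low on both sides until E7.0. Hoxb1 averaged 0.555 FPKM in P and 0.112 FPKM in A at E6.5, 4.88 FPKM in P and 0 FPKM in A at E7.0 and 242 FPKM in P and 10.0 FPKM in A at E7.5, a change of 6.30 ± 0.25 from E6.5 and 4.90 ± 0.32 from E7.0. Cdx1 averaged 0.502 FPKM in P and 0.0515 FPKM in A at E6.5, 3.77 FPKM in P and 0 FPKM in A at E7.0 and 372 FPKM in P and 12.8 FPKM in A at E7.5. Msgn1 was at 0.0199 FPKM in P at E6.5 and listed at 0 at E7.0, and reached 157 FPKM in P at E7.5 (6.34 ± 0.28 from E7.0). Aldh1a2 (4.77), Gal (5.14) and Arg1 (4.70), the arginase gene, had likewise been below 2 FPKM on both sides at E7.0. Hes7 (5.87 from E6.5) and Tbx6 (5.37) were intermediate at E7.0, with 8.92 and 11.8 FPKM in P.

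Otx2 was on both sides at E6.5: it averaged 36.1 FPKM in P and 46.8 FPKM in A at E6.5, 16.0 FPKM in P and 35.4 FPKM in A at E7.0 and 0.218 FPKM in P and 42.9 FPKM in A at E7.5. P minus A was -0.40 at E6.5, -0.91 at E7.0 and -4.02 at E7.5, a change of -3.62 ± 0.22 from E6.5 and -3.11 ± 0.28 from E7.0. Cldn6 averaged 128 FPKM in P and 176 FPKM in A at E6.5, 47.4 FPKM in P and 167 FPKM in A at E7.0 and 20.3 FPKM in P and 255 FPKM in A at E7.5 (-3.50 from E6.5), and Cxcl12 17.0 FPKM in P and 9.91 FPKM in A at E6.5, 1.46 FPKM in P and 12.5 FPKM in A at E7.0 and 1.19 FPKM in P and 28.1 FPKM in A at E7.5 (-4.42 from E6.5).

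Cyp26a1, Irx5, Irx3 and Pkdcc, like Cxcl12, had a mean difference above 0 at E6.5 and below 0 at E7.5. For Cyp26a1 the difference at E7.5 was not called and depended on the section. In section 1 at E7.5 it was at 17.3, 48.9 and 0.184 FPKM in P and 0.731, 1.01 and 0 FPKM in A. Cyp26a1 averaged 12.3 FPKM in P and 3.54 FPKM in A at E6.5, 122 FPKM in P and 2.07 FPKM in A at E7.0 and 21.6 FPKM in P and 59.5 FPKM in A at E7.5, with P minus A at 1.55 at E6.5, 5.39 at E7.0 and -1.07 at E7.5 (-6.46 ± 0.75 from E7.0, adjusted p = 4.5e-04). Irx5 had P minus A at 0.31 at E6.5, 1.64 at E7.0 and -2.99 at E7.5, and Irx3 at 0.11 at E6.5, 0.53 at E7.0 and -3.44 at E7.5. Pkdcc, a secreted kinase gene, had 1.37 at E6.5, 1.81 at E7.0 and -1.91 at E7.5. For Lefty2 and Eomes the difference between the sides shrank after E7.0. Lefty2, a NODAL antagonist, averaged 9.96 FPKM in P and 2.65 FPKM in A at E6.5, 84.8 FPKM in P and 0.233 FPKM in A at E7.0 and 1.79 FPKM in P and 0.526 FPKM in A at E7.5 (-4.35 ± 0.45 from E7.0), and Eomes 48.8 FPKM in P and 10.8 FPKM in A at E6.5, 70.4 FPKM in P and 7.34 FPKM in A at E7.0 and 1.56 FPKM in P and 0.861 FPKM in A at E7.5 (-3.18 ± 0.48).

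**Figure D5:**
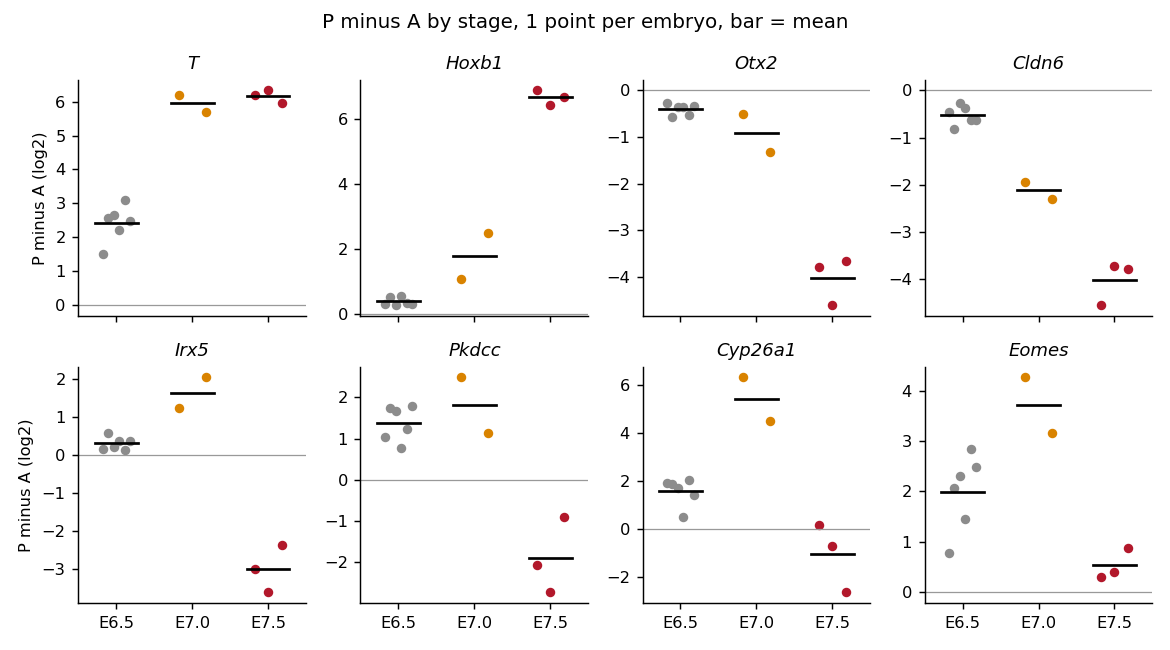
P minus A in log2 units for 8 genes in each embryo at E6.5, E7.0 and E7.5, with a bar at the stage mean. Hoxb1 leaves 0 mainly at E7.5, and Otx2 and Cldn6 become more negative at each stage. Irx5, Pkdcc and Cyp26a1 have positive means at E6.5 and E7.0 and negative ones at E7.5, where the difference of Cyp26a1 was not called.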

How the data were processed

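Geo-seq libraries of C57BL/6 embryos were used. The authors deposited FPKM values; the submitters' processing notes name TopHat2 2.0.8b, Cufflinks 2.1.1 and the build mm10, and the annotation, options and any use of strand are not given in the sources used here. The 23361 genes of each table were used as listed. In the tables read, 183 columns of per-sample values were not used. FPKM gives no read counts, so the depth is unknown and no count test was run.

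From the deposited FPKM, values on the log2 scale, log2(FPKM + 1), were computed, and P minus A was averaged over sections within an embryo. Differences were tested with limma 3.58.1 in R 4.3.3, using its moderated test with trend and robust options. Genes with a mean of at least 1 FPKM in P or A were tested, with Benjamini-Hochberg adjustment and a threshold of 0.05. The code was also run on data simulated at the spread of the fitted differences, with results that are not reported here. The embryo was the block, since P and A came from the same animal: their deviations correlated at 0.512, 0.594 and 0.770 within embryos 1, 2 and 3 and at most 0.172 between embryos, over 10942 genes. In each list the 4 members with the smallest p, and every Hox and Cdx gene at 1 FPKM or more, were named beside the leading genes, apart from results of 2 members that are not reported here; further members were named after their values were seen. The comparison, the 28 gene lists and the tests were chosen with earlier results of these data known. Sections, slopes, stages and embryos 4 to 6 were treated as the text states. The p-values of P minus A in each set of embryos and of the slopes measure the spread between 3 embryos. Those of the stage changes rest on the spread within stages, shared over 6 embryos at E6.5, 2 at E7.0 and 3 at E7.5. Those of the difference between the sets rest on the spread within the sets over 6 embryos. Alternatives covered the pseudocount, the filter, the scaling, the block, the spread and each embryo left out; leaving out section 1 or embryo 1 sections 4 and 5 was chosen after seeing the data. Promoters came from RefSeq. Figures were drawn with Python 3.11.15.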

Additional observations from a re-analysis of the deposited data

Results flagged for a closer look

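The difference between P and A changed with the stage for the genes below, each by a limma contrast of E7.5 with an earlier stage. The values are changes of P minus A in log2 units, given as E7.5 minus the earlier stage, and what accounts for them was not tested. Against E6.5 the leading upward changes were in Cdx1 (6.43), Msgn1 (6.33), Hoxb1 (6.30), Hes7 (5.87), Tbx6 (5.37) and Gal (5.11), and T changed by 3.73. The downward ones were in Cxcl12 (-4.42), Otx2 (-3.62), Irx3 (-3.54), Cldn6 (-3.50), Irx5 (-3.30) and Pkdcc (-3.28).

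Against E7.0, where only 2 embryos were available, the upward changes were in Msgn1 (6.34), Gal (5.14), Cdx1 (4.96), Hoxb1 (4.90), Aldh1a2 (4.77) and Arg1 (4.70). The downward ones were in Cyp26a1 (-6.46), Irx5 (-4.63), Lefty2 (-4.35), Irx3 (-3.96), Pkdcc (-3.72), Eomes (-3.18) and Otx2 (-3.11).

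At E6.5, the stage with 6 embryos, single embryos were examined for each of the 18 genes named in a change between stages. By Dixon's rule at 95%, embryo 3 stood apart for 2 of them: P minus A was 0.30 for Aldh1a2, against -0.058 to 0.030 in the other 5 embryos, and -0.65 for Gal, against 0 to 0.32. Chance marks about 1 in 20 groups. Groups of 3 embryos or fewer were not examined in this way.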

How the results depend on the processing

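Of 24 leading genes, 22 kept their sign and their call in embryos 1 to 3 under all 17 alternatives; Irx3 and Utf1 lost it without embryo 1. Of 12 leading slopes, 5 did so under all 12 alternatives. The 1671 calls became 1032 with a pseudocount of 0.1, 973 with no filter on low values, 871 with a mean of at least 5 FPKM, 809 with the spread shared with embryos 4 to 6, and 1208 to 1742 without 1 embryo each. Without embryo 1 sections 4 and 5, an alternative added after seeing the data, they became 3116. In embryos 4 to 6 the 590 calls became 309 with a pseudocount of 0.1, 321 with an equal FPKM sum, 313 with an equal median, 278 with no filter, 1544 with a shared spread, and 202 to 728 without 1 embryo each. The difference between both sets gave 0 to 2 calls without 1 embryo each. The 589 slopes became 275 with a pseudocount of 0.1, 34 with no filter, 357 with a mean of at least 5 FPKM, 63 without the lowest and the highest section, 94 without section 1 (also added after seeing the data) and 334 to 421 without 1 embryo each. The 1013 changes from E6.5 became 621 with a pseudocount of 0.1, 554 with a mean of at least 5 FPKM and 664 to 1188 without 1 embryo each, and the 547 changes from E7.0 became 275, 298 and 308 to 1233; where 1 embryo was left at E7.0 it was assumed to vary like the others. With a pseudocount of 5 the change of T from E7.0 passed the threshold (0.92, adjusted p = 0.016). No called value of a named gene changed sign under the alternatives run, but with an equal median the balance of calls turned, to 773 higher and 985 lower in embryos 1 to 3 and 434 upward and 503 downward from E6.5. Filters change the number of genes tested; for the other alternatives the cause was not tested.

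The pairing by embryo was kept in all fits but 1: with no replicate block, 982 genes were called in embryos 1 to 3 and 136 in embryos 4 to 6. Read depth could not be weighed, since FPKM holds no counts.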

Other observations

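The genes in this paragraph were chosen after their values were seen and are given as values only. Among genes called in embryos 1 to 3 that no list above holds, the growth regulator Phlda2 was higher in P by 3.35 log2 units and the zinc finger gene Peg3 by 2.11; both are imprinted genes. In embryos 4 to 6 their differences were 4.43 and 1.67. The neurofilament genes Nefl (2.48) and Nefm (2.58) and the planar polarity gene Prickle1 (2.72) were higher in embryos 1 to 3 as well. Lower in P were Eras (-2.51), a RAS-family gene of embryonic stem cells, Podxl (-2.36), a sialomucin of apical membranes, and the peptide precursor gene Calca (-2.60). Otx2os1, a transcript named as opposite to Otx2, was lower (-1.94); with no statement on strand in the sources used here, reads that both could give cannot be told apart.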
